A study of Mus musculus with 24 samples.

Results

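The effect of losing the type II TGF-beta receptor on gene expression was described in one part of the embryonic face, the proximal maxilla. The arrays were chosen by their titles: the 3 labelled Tgfbr2_Knockout and Maxilla Proximal were set against the 3 labelled Control and Maxilla Proximal, which makes 6 of the 24 arrays of the study, and 13850 of 18194 named genes were tested. Labelled RNA of mouse embryos of stage 13.5 (E13.5, days after a vaginal plug, background labelled C57B6) was hybridised to Affymetrix arrays. The mandible and the maxilla had each been cut into a distal and a proximal end, and each of the 8 groups of genotype and region holds 3 arrays. The embryos came from crosses of Wnt1cre;Tgfbr2fl/+ with Tgfbr2fl/fl mice. A cleft palate and a defect of the skull vault identified the mutants, and the controls were littermates, with Cre and floxed alleles not given in the sources used here. Every embryo of such a cross carries at least 1 floxed Tgfbr2 allele. Wnt1-Cre recombines floxed alleles in the neural crest, so epithelium, endothelium, blood and muscle cells of the mutants keep the receptor, and each array reads a mixture of all these cells.

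TGF-beta ligands are secreted bound to latency proteins in the extracellular matrix. Once freed they bind the type II receptor, which activates the type I receptor, and SMAD2 and SMAD3 then enter the nucleus with SMAD4. In the face most bone, cartilage, tendon and other connective tissue of the jaws descends from the neural crest, while muscle fibres and vessels come from mesoderm. The upper jaw gives rise to the palatal shelves, the maxillary and palatine bones and the upper molars.

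All values are log2 array values, and values of the 3 arrays of a group are listed in the order of replicates 1, 2 and 3. Differences are mutant minus control, with the standard error (SE) of limma, and a gene is called when its Benjamini-Hochberg adjusted p over the 13850 genes is under 0.05. The labels do not say whether replicates are separate embryos or pools, so p-values cover only the spread among these arrays, part of which may be technical. In bulk tissue, fewer cells of a type and less RNA per cell cannot be told apart.

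Some measures set single arrays apart. The gap between 3' and 5' probe sets of Gapdh (the Gapdh difference), larger in degraded RNA, was 0.01, 0.09 and 0.02 in the control and 0.33, 0.1 and 0.62 in the mutant proximal maxilla arrays. Xist, which coats the silenced X chromosome, was at log2 6.25, 13.67 and 13.72 in the control arrays and 6.42, 13.33 and 13.30 in the mutant arrays, and the mean of the Y-linked Eif2s3y, Kdm5d and Uty was at 10.01, 3.81 and 4.04 against 10.07, 9.06 and 9.26, so mutant replicates 2 and 3 held both kinds of transcript. Mutant replicate 1 correlated with the other 5 arrays at 0.973 to 0.977 over all genes tested, while those 5 correlated with each other at 0.983 to 0.995. No pair of the 24 arrays was identical. The control arrays carried the mesenchymal transcripts Prrx1 (mean log2 13.51), Pdgfra (12.89) and Twist1 (12.05), and Hand2, a mandibular gene, averaged 7.90 there against 11.42 in the control proximal mandible. That mean covers Hand2 values of 9.16, 6.99 and 7.54, with control replicate 1 the highest.

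Tgfbr2 itself was not called. Its brightest probe set read log2 12.04, 12.12 and 12.14 in the control arrays and 12.28, 12.42 and 12.57 in the mutant arrays, so all mutant arrays lay above all control arrays. The difference was 0.32 ± 0.109 (adjusted p = 0.0889), while its remaining probe sets gave -0.07 and -0.08. The place of the probes relative to the deleted exons was not given in the sources used here, and neither the deletion nor the labels are checked by them. H2az2 encodes a variant histone H2A. The insertion of a commonly used Wnt1-Cre transgene is mapped to its locus, although the labels do not name the line. H2az2 read log2 13.65, 13.64 and 13.60 in the control arrays and 13.01, 12.83 and 12.79 in the mutant arrays, with no overlap, and fell by 0.75 ± 0.0641 (adjusted p = 3.40e-06). That call was kept when any of the 6 arrays was left out. Wnt1, whose promoter drives the Cre, was between 4.86 and 5.49 and passed the 40th percentile on 0 of the 24 arrays.

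Of the 13850 genes, 789 (5.7%) were called, 460 higher (3.32%) and 329 lower (2.38%) in the mutant proximal maxilla. The rises were the larger changes: 32 called genes were at least 2-fold higher, and 8 were at 0.5 of control or less. The median difference was 0.44 among genes called higher and -0.32 among genes called lower, against 0.02 over all genes tested. In 783 of the 789 called genes the 3 mutant arrays did not overlap the 3 controls, against 24.9% of all genes tested. Before adjustment, 2970 genes (21.4%) had a p under 0.05. The filter on low values let 60 genes in only through the mutant proximal maxilla arrays, 3 of them called, and 39 only through the control proximal maxilla arrays, 1 of them called. With the mean of all probe sets of a gene in place of the brightest, 200 genes were called higher (1.44%) and 251 lower (1.81%), 3.26% in all, so the excess of rises turned. With mutant replicate 2, the proximal maxilla mutant with the lowest Gapdh difference, within the -0.07 to 0.16 of all control arrays of the 4 regions, as the only mutant array, 137 genes were called (0.989%), 92 higher (0.664%) and 45 lower (0.325%), of which 105 were among the 789. With the Gapdh difference as a covariate 2976 were called (21.5%), 1355 higher (9.78%) and 1621 lower (11.7%), 752 of them among the 789. The part of RNA quality in these calls was not tested further. Without control replicate 1, 2 or 3 the count was 269 (1.94%), 385 (2.78%) or 214 (1.55%). Without mutant replicate 1, 2 or 3 it was 314 (2.27%), 773 (5.58%) or 640 (4.62%). With arrays of the same genotype and replicate number joined as a random block it was 629 (4.54%).

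**Figure D1:**
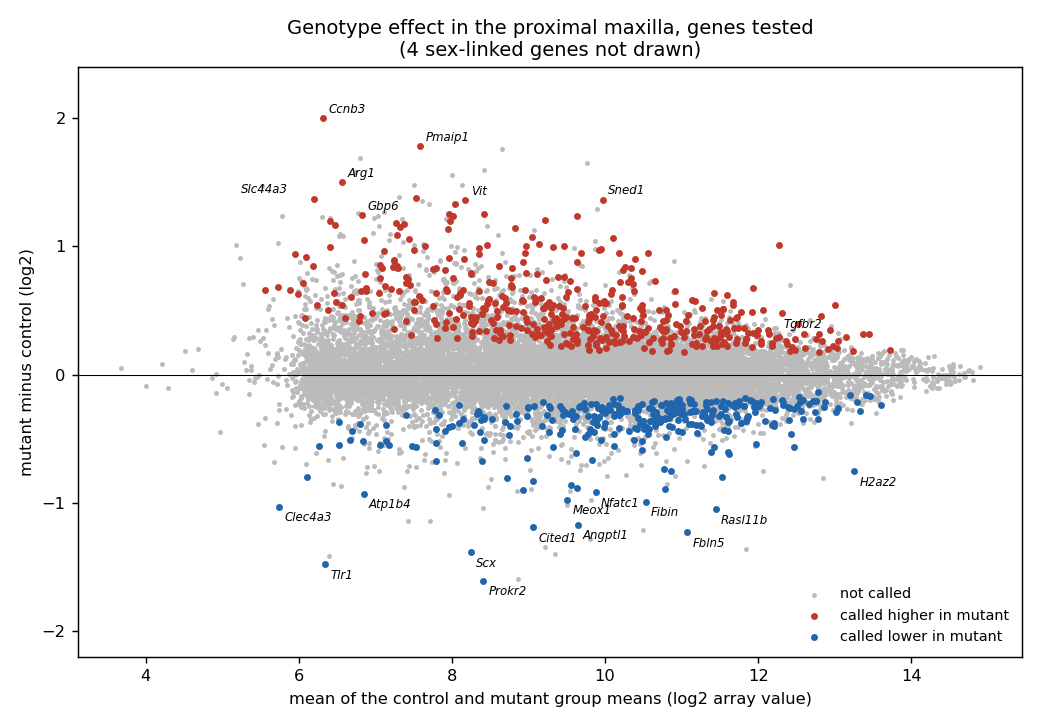
Mutant minus control difference in the proximal maxilla (log2, vertical) against the mean level of a gene (log2, horizontal) for the genes tested, with 460 called higher in red and 329 called lower in blue, 4 sex-linked genes left undrawn and most of the 24 largest changes labelled. The largest differences were found among genes of low and middle level, while most of the brightest genes stayed close to 0.

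The largest difference was that of Ccnb3, a B-type cyclin known best from meiosis. It read log2 5.33, 5.45 and 5.17 in the control arrays and 6.34, 7.72 and 7.88 in the mutant arrays, and the difference was 2.00 ± 0.267, with mutant replicate 1 well below the other 2. Ccnb3 exceeded the 40th percentile on these 3 mutant arrays and on 0 of the other 21 arrays of the study, so it entered the test only through the group where it is high, and its fold is against dim values. Without any filter on low values its adjusted p was 0.000839. Pmaip1, which encodes the pro-apoptotic p53 target NOXA, read log2 6.65, 6.82 and 6.61 in the control arrays and 8.93, 8.45 and 8.05 in the mutant arrays and rose by 1.78 ± 0.385 (adjusted p = 0.0126). Its mutant arrays were spread over almost 1 log2 unit without reaching the controls. Vit, which encodes the matrix protein vitrin, read log2 7.73, 7.05 and 7.70 in the control arrays and 8.72, 8.67 and 9.18 in the mutant arrays and rose by 1.36 ± 0.212 (adjusted p = 0.00193). Sned1, a glycoprotein of the interstitial matrix, read log2 9.44, 9.03 and 9.39 in the control arrays and 11.06, 10.21 and 10.68 in the mutant arrays and rose by 1.36 ± 0.343 (adjusted p = 0.0274). The lack of overlap in both matrix genes was required by that rule. Slc44a3, a choline transporter-like protein, read log2 5.46, 5.37 and 5.69 in the control arrays and 7.10, 6.71 and 6.82 in the mutant arrays, a difference of 1.37 ± 0.265. It too entered the test only through the mutant proximal maxilla, with 1 of the other 21 arrays above the 40th percentile, and without any filter its adjusted p was 0.00852. Kdf1, a factor of keratinocyte differentiation, read log2 7.51, 7.16 and 7.48 in the control arrays and 9.42, 8.33 and 8.38 in the mutant arrays and rose by 1.33 ± 0.249 (adjusted p = 0.00583). Ptger3, a receptor for prostaglandin E2, read log2 7.63, 7.99 and 7.76 in the control arrays and 9.23, 9.03 and 8.87 in the mutant arrays and rose by 1.25 ± 0.213 (adjusted p = 0.00339). Vit, Kdf1 and Ptger3 stayed called when any single array was left out. With the mean of all probe sets of a gene Kdf1 did not pass (0.82, adjusted p = 0.0586), and its dimmer probe set gave 0.31. Pmaip1 was lost without control replicate 3 (adjusted p = 0.0577) and without mutant replicate 1 (0.0613), and Sned1 without any array other than mutant replicate 2 (adjusted p up to 0.109). Sned1 was also lost with the random block (adjusted p = 0.052).

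In 4 further large rises, 1 mutant array stood far above the other 2. Arg1, the arginase of the urea cycle, read log2 5.68, 5.83 and 5.93 in the control arrays and 8.58, 6.99 and 6.36 in the mutant arrays and rose by 1.5 ± 0.40 (adjusted p = 0.0353). St8sia6, a sialyltransferase, read log2 6.78, 6.96 and 6.80 in the control arrays and 9.65, 7.58 and 7.43 in the mutant arrays and rose by 1.37 ± 0.385 (adjusted p = 0.043). Gcnt2, a glycosyltransferase that branches lactosamine chains, read log2 7.40, 7.13 and 7.48 in the control arrays and 9.77, 8.19 and 7.8 in the mutant arrays and rose by 1.25 ± 0.362 (adjusted p = 0.0487). Gbp6, an interferon-induced GTPase, read log2 6.10, 6.36 and 6.17 in the control arrays and 8.41, 7.27 and 6.67 in the mutant arrays and rose by 1.24 ± 0.358 (adjusted p = 0.0479). Arg1 was above the 40th percentile on 0 of the control arrays and Gbp6 on 1, so their folds are against dim values. In each of the 4 the high array was mutant replicate 1, and mutant replicates 2 and 3 were still above every control, as the rule required. None of the 4 calls was kept without mutant replicate 1, without any single control array, or with the random block. The adjusted p reached 0.145 for Arg1, 0.128 for St8sia6, 0.207 for Gcnt2 and 0.222 for Gbp6 when 1 array was left out, and was 0.077, 0.0973, 0.0724 and 0.112 with the random block. The call of Gbp6 was also lost without mutant replicate 2. Those of St8sia6 and Gcnt2 were also lost with the mean of all probe sets of a gene (1.22 and 0.17, adjusted p = 0.0603 and 0.353). Cep83os, a transcript named for its place opposite Cep83, read log2 7.13, 7.44 and 7.61 in the control arrays and 8.76, 8.13 and 9.01 in the mutant arrays and rose by 1.24 ± 0.266 (adjusted p = 0.012), a call lost without control replicate 1 (0.0674) and without mutant replicate 1 (0.0502).

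The largest falls included transcription factors, secreted proteins and genes of myeloid cells. Prokr2, a G protein-coupled receptor for prokineticins, read log2 9.36, 8.63 and 9.63 in the control arrays and 7.59, 7.47 and 7.75 in the mutant arrays and fell by 1.61 ± 0.327 (0.328 of control, adjusted p = 0.00957). Scx, the basic helix-loop-helix factor of tendon progenitors, read log2 9.04, 8.83 and 8.94 in the control arrays and 7.29, 7.63 and 7.73 in the mutant arrays and fell by 1.39 ± 0.209 (adjusted p = 0.00159). In both genes the lowest control lay about a full log2 unit above the highest mutant. Cited1, a transcriptional co-regulator, read log2 9.54, 9.81 and 9.60 in the control arrays and 8.28, 8.45 and 8.65 in the mutant arrays and fell by 1.19 ± 0.162 (adjusted p = 0.000728). Meox1, a homeobox factor, read log2 9.91, 10.15 and 9.92 in the control arrays and 8.59, 9.34 and 9.12 in the mutant arrays and fell by 0.98 ± 0.193 (adjusted p = 0.00849). Nfatc1, a calcineurin-dependent transcription factor, read log2 10.44, 9.98 and 10.58 in the control arrays and 9.49, 9.31 and 9.45 in the mutant arrays and fell by 0.92 ± 0.182 (adjusted p = 0.00873). The lack of overlap in the 3 factors was required by the rule that picked them. Rasl11b, a small RAS-like GTPase, read log2 12.11, 11.84 and 11.95 in the control arrays and 10.76, 10.87 and 11.12 in the mutant arrays and fell by 1.05 ± 0.117 (adjusted p = 8.18e-05). Of these 6, only Prokr2 and Nfatc1 lost their call when an array was left out, in both cases control replicate 3 (adjusted p = 0.0605 and 0.0549).

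Among secreted proteins, Fbln5, a fibulin needed for elastic fibre assembly, read log2 11.60, 11.63 and 11.84 in the control arrays and 10.37, 10.57 and 10.44 in the mutant arrays and fell by 1.23 ± 0.129 (0.427 of control, adjusted p = 5.07e-05). Angptl1, an angiopoietin-like protein, read log2 10.17, 10.25 and 10.27 in the control arrays and 8.72, 9.17 and 9.28 in the mutant arrays and fell by 1.17 ± 0.204 (adjusted p = 0.00381). Fibin, a secreted protein also expressed in tendon, read log2 10.85, 11.06 and 11.17 in the control arrays and 9.93, 10.03 and 10.14 in the mutant arrays and fell by 0.99 ± 0.195 (adjusted p = 0.00798). Each of these 3 calls was kept when any single array was left out, while the lack of overlap was required by the rule. Atp1b4, related to the beta subunits of the sodium pump and known from muscle, read log2 7.37, 7.23 and 7.33 in the control arrays and 5.52, 6.81 and 6.81 in the mutant arrays and fell by 0.93 ± 0.251 (adjusted p = 0.0369). Mutant replicate 1 was its lowest array, without it the adjusted p was 0.135, and the call was also lost without any single control array (up to 0.117). Fbln5 was among only 5 genes (0.0361%) called when the 6 proximal maxilla arrays were fitted alone (adjusted p = 0.0394). The others were Plekha2, AU021092, Cobl and Elmod1, all higher. Plekha2, which encodes a phosphoinositide-binding adaptor and shares the smallest adjusted p with H2az2, lies outside the rule for naming genes and was picked after its values were seen: it read 8.54, 8.68 and 8.6 in controls and 9.69, 9.88 and 9.87 in mutants (1.21 ± 0.1, adjusted p = 3.40e-06).

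**Figure D2:**
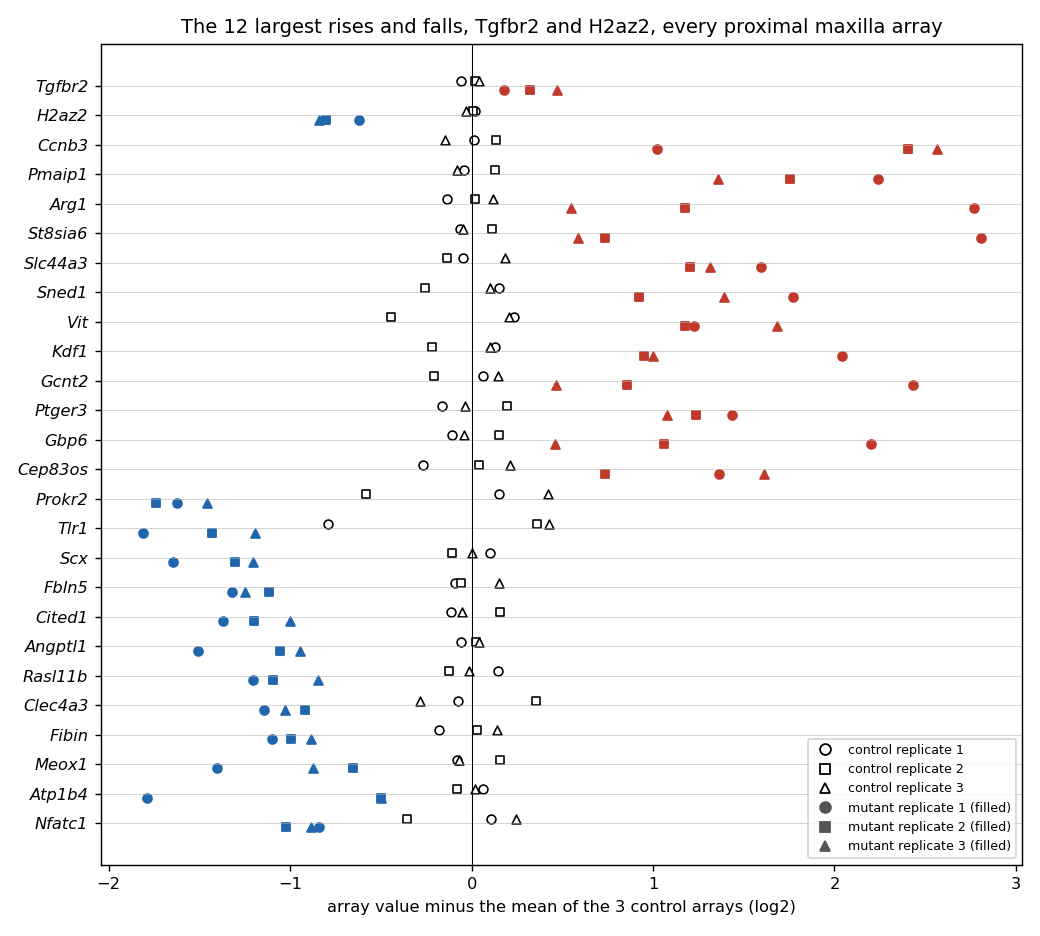
Each proximal maxilla array as its log2 value minus the mean of the 3 control arrays, for Tgfbr2, H2az2, the 12 largest rises and the 12 largest falls, with controls as open symbols, mutants as filled symbols and the replicate number as the shape. The high circle of mutant replicate 1 stands apart in Arg1, St8sia6, Gcnt2 and Gbp6, while the 3 mutant arrays lie close together in Scx, Fbln5, Cited1 and Rasl11b.

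Ligands and receptors of the pathway itself differed little. Of 34 tested ligands, receptors and regulators, 2 were called higher and 0 lower, with a median of 0.04. Over all genes tested 3.32% were called higher and 2.38% lower, the shares to set beside this and the following lists. The ligand Tgfb2 read log2 11.62, 11.51 and 11.67 in the control arrays and 12.47, 12.17 and 12.18 in the mutant arrays and rose by 0.67 ± 0.112 (adjusted p = 0.00282). Tgfbr3, the co-receptor betaglycan that presents TGF-beta2 to the type II receptor, read log2 11.37, 11.70 and 11.51 in the control arrays and 11.85, 12.09 and 12.11 in the mutant arrays and rose by 0.48 ± 0.135 (adjusted p = 0.0419). Both were higher in all mutant arrays than in all control arrays. The call of Tgfb2 was kept whichever array was left out, while that of Tgfbr3 was lost without any array other than control replicate 2 (adjusted p up to 0.17) and with the random block (0.0697). The integrin subunit Itgav, part of the integrins that free latent TGF-beta, differed by 0.21 ± 0.0694 (adjusted p = 0.0792), with another probe set at -0.00466. Fst, the activin antagonist follistatin, differed by 0.34 ± 0.113 (adjusted p = 0.0827). The other ligands Tgfb1 and Tgfb3 differed by -0.17 and 0.06, the type I receptor Tgfbr1 by 0.25, and Smad2, Smad3, Smad4 and the inhibitory Smad7 by -0.13, 0.04, 0.09 and -0.01, none of them called.

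Of 29 tested genes known to respond to TGF-beta in other cells, 3 were called lower and 0 higher, and the median was 0.04. Scx and Fbln5 were 2 of the 3. Ccn1, a matricellular protein, read log2 9.90, 9.89 and 9.97 in the control arrays and 9.40, 9.13 and 9.40 in the mutant arrays and fell by 0.62 ± 0.16 (adjusted p = 0.0317), a call lost without any array other than mutant replicate 3 (adjusted p up to 0.109). Values of the common reporters of the pathway that did not pass were -0.13 for Pmepa1, -0.03 for Skil, -0.43 for Ccn2, -0.45 for Id1 and 0.25 for Tagln. Cdkn2b, the cell cycle inhibitor p15, differed by 0.53 ± 0.166 with overlapping arrays (adjusted p = 0.0663).

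The promoters of the called responsive genes that the RefSeq table (GRCm38.p6) holds are shown with the short element bound by SMAD proteins, CAGAC, in capitals. It was searched on both strands (GTCTG on the other), and all copies in these windows lay on the strand of the gene. The windows span 250 bases before to 50 bases after an annotated start. Ccn1 lies at chr3:145649936-145650235 on the minus strand, and the alternative starts of Fbln5 at chr12:101819070-101819369 and chr12:101818435-101818734, also on the minus strand.
Ccn1: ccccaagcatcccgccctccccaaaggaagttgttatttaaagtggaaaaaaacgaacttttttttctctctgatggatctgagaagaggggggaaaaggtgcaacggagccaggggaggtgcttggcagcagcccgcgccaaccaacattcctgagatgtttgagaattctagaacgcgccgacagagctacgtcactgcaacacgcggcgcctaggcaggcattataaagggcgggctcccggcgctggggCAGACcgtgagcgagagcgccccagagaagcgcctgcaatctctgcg
Fbln5, first window: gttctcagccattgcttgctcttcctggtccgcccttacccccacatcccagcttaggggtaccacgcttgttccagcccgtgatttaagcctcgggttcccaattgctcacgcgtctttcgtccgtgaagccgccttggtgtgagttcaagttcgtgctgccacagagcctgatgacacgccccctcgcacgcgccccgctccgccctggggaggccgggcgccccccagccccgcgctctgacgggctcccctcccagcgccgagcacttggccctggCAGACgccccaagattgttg
Fbln5, second window: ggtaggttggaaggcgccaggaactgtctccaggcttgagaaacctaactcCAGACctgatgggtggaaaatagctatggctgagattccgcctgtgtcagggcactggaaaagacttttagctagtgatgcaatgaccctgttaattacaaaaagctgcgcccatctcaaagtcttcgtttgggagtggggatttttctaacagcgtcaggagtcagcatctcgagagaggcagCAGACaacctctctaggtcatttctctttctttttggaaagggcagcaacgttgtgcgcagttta
The copy in Ccn1 begins at base 4 counted from the start as 1, that in the first Fbln5 window at base 31, and those in the second at -199 and -15. The element is common: it was found in 49.6% of all 32851 promoters in the table, in 47.8% of those of genes tested, in 46.4% of those of genes called higher and in 45.4% of those of genes called lower. The palindrome GTCTAGAC, found in 0.213% of all promoters, was in none of the 3 windows.

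Falls were called among tendon genes. Of 18 tested members of the tendon list, 4 were called lower and 0 higher, with 13 below 0 and a median of -0.26. Besides Scx and Fibin these were Mkx, the homeobox factor Mohawk, which read log2 10.07, 10.26 and 10.15 in the control arrays and 9.42, 9.48 and 9.58 in the mutant arrays (-0.67 ± 0.171, adjusted p = 0.029), and the matrix glycoprotein Tnc, which read log2 11.21, 11.31 and 11.18 in the control arrays and 10.08, 10.61 and 10.77 in the mutant arrays (-0.75 ± 0.194, adjusted p = 0.0309). Neither gene overlapped between the groups, and mutant replicate 1 held the lowest value of both. Tnmd, the late tendon marker tenomodulin, differed by -0.12 (adjusted p = 0.859). The summed level of the list was 15.18 to 15.40 in control and 14.92 to 15.36 in mutant arrays, so the groups overlapped. Mkx lost its call without any array other than mutant replicate 3 (adjusted p up to 0.0935), and Tnc without mutant replicate 1 or any control (up to 0.143) and with the random block (0.0576). With mutant replicate 2 as the only mutant array, 2 of the list were called lower.

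Elastic fibre proteins moved both ways. Of 14 tested, 4 were called lower and 1 higher, with a median of -0.02. Mfap4, a microfibril-associated protein, read log2 11.90, 11.86 and 12.03 in the control arrays and 11.03, 10.99 and 11.38 in the mutant arrays and fell by 0.79 ± 0.161 (adjusted p = 0.00929). Emilin1, a glycoprotein at the interface of elastin and microfibrils, read log2 11.81, 11.92 and 11.97 in the control arrays and 11.32, 11.12 and 11.46 in the mutant arrays and fell by 0.60 ± 0.109 (adjusted p = 0.00436). Mfap2, a further microfibril protein, read log2 13.12, 13.14 and 13.25 in the control arrays and 12.88, 12.88 and 12.97 in the mutant arrays and fell by 0.26 ± 0.0612 (adjusted p = 0.021). The remaining gene was Fbln5, and in all 4 the mutant arrays lay below the controls. Efemp1, which encodes fibulin-3 of the same family as Fbln5, went the other way: it read log2 11.79, 11.85 and 11.65 in the control arrays and 12.53, 12.98 and 12.80 in the mutant arrays and rose by 1.01 ± 0.181 (2.01-fold, adjusted p = 0.00436). Eln, elastin itself, differed by -0.37 (adjusted p = 0.20). The call of Mfap2 was lost without control replicate 3 (0.106) and mutant replicate 1 (0.0714). The others were kept whichever array was left out.

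Of 28 tested stromal matrix genes, Vit and Sned1 were called higher and Tnc lower, and the fibrillar collagens Col1a1, Col1a2 and Col3a1 differed by -0.01, 0.06 and 0.14, none called. Matn2, a matrilin, differed by 0.73 ± 0.22 (adjusted p = 0.0561). Of 17 tested basement membrane genes, 4 were called higher and 0 lower, 16 were above 0, and the median was 0.31. Nid1, the linker protein nidogen, read log2 12.01, 12.13 and 12.06 in the control arrays and 12.62, 12.59 and 12.43 in the mutant arrays and rose by 0.48 ± 0.0807 (adjusted p = 0.00285). The collagen IV chain Col4a5 read log2 9.89, 9.94 and 9.92 in the control arrays and 10.56, 10.65 and 10.34 in the mutant arrays and rose by 0.60 ± 0.108 (adjusted p = 0.00436). Col4a1, the ubiquitous collagen IV chain, read log2 12.41, 12.74 and 12.63 in the control arrays and 13.08, 13.04 and 13.01 in the mutant arrays and rose by 0.45 ± 0.0948 (adjusted p = 0.0107). All mutant arrays were above all controls in these 3. Lamc1, the gamma chain of most laminins, rose by 0.31 ± 0.078 (adjusted p = 0.0275), with another probe set at -0.14. The summed level of the list was 15.04 to 15.21 in control and 15.43 to 15.48 in mutant arrays. Col4a1 lost its call without control replicate 1 (0.0685), and Lamc1 without control replicate 1 or 2 or mutant replicate 1 or 2 (adjusted p up to 0.14) and with the random block (0.0504).

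Epithelium lines the jaw primordia and does not descend from the neural crest. Of 24 tested epithelial markers, 4 were called higher and 0 lower, 21 were above 0, and the median was 0.44. Cdh1, E-cadherin, read log2 10.17, 9.98 and 9.68 in the control arrays and 11.24, 10.81 and 10.48 in the mutant arrays and rose by 0.90 ± 0.161 (adjusted p = 0.00431). Esrp2, an epithelial splicing factor, read log2 7.97, 7.97 and 7.63 in the control arrays and 8.98, 8.27 and 8.67 in the mutant arrays and rose by 0.78 ± 0.166 (adjusted p = 0.0115), with another probe set at -0.13. The desmosome protein Dsp read log2 11.30, 11.40 and 11.13 in the control arrays and 11.56, 12 and 11.68 in the mutant arrays and rose by 0.47 ± 0.122 (adjusted p = 0.0317). Grhl2, a transcription factor of surface epithelia, read log2 8.54, 8.65 and 8.15 in the control arrays and 9.54, 8.95 and 8.88 in the mutant arrays and rose by 0.68 ± 0.191 (adjusted p = 0.0432). No mutant array overlapped a control in any of the 4. Keratins did not pass: Krt5 differed by 0.40, Krt14 by 0.27, Krt8 by 0.88, Krt18 by 0.80 and Krt19 by 0.07. The 3 members of the list below 0 were the keratins Krt15 (-0.25) and Krt17 (-0.07) and the cadherin Cdh3 (-0.30), none of them called. The summed level of the epithelial list was 13.92 to 14.15 in control arrays and 14.86, 14.49 and 14.45 in mutant replicates 1, 2 and 3, where the basement membrane list summed to 15.45, 15.48 and 15.43, and of its members only Fgf8 was below the 40th percentile on all 6 arrays. The part of epithelial cells in the other changes was not tested. Cdh1 kept its call whichever array was left out. Esrp2 lost it without control replicate 3 (0.0736) or mutant replicate 1 (0.0617), Dsp without control replicate 1 or 3 or mutant replicate 2 (adjusted p up to 0.145), and Grhl2 without mutant replicate 1 or any control (up to 0.20) and with the random block (0.0853).

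Rises were called among markers of vessel walls, against 3.32% of all genes tested called higher. Of 13 tested genes of pericytes and smooth muscle, cells that descend in the face largely from the neural crest, 2 were called higher and 0 lower, with a median of 0.26 and a summed level of 14.39 to 14.50 in control and 14.62 to 14.84 in mutant arrays. Pdgfrb, the receptor that marks pericytes, read log2 11.91, 12.05 and 11.88 in the control arrays and 12.24, 12.30 and 12.35 in the mutant arrays and rose by 0.35 ± 0.0764 (adjusted p = 0.0133), and Mylk, myosin light chain kinase, read log2 9.59, 9.69 and 9.44 in the control arrays and 10.59, 9.99 and 9.95 in the mutant arrays and rose by 0.60 ± 0.153 (adjusted p = 0.028). Neither overlapped between groups. Of 22 endothelial markers, 1 was called: Esm1, a proteoglycan of endothelial tip cells, read log2 6.98, 6.96 and 6.65 in the control arrays and 7.45, 7.99 and 7.68 in the mutant arrays and rose by 0.84 ± 0.218 (adjusted p = 0.0304). The endothelial list summed to 14.35 to 14.57 in control and 14.48 to 14.53 in mutant arrays. Pdgfrb lost its call without control replicate 1 (0.0621) or 3 (0.0737), Mylk without control replicate 1 or 3 or mutant replicate 1 (adjusted p up to 0.131), and with the random block (0.0507), and Esm1 without any array other than mutant replicate 1 (up to 0.132).

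Genes of macrophages split. Of 23 tested, 3 were called lower and 1 higher, with a median of 0.09. Tlr1, a Toll-like receptor, read log2 6.29, 7.44 and 7.51 in the control arrays and 5.27, 5.65 and 5.89 in the mutant arrays and fell by 1.48 ± 0.342 (adjusted p = 0.0185). Clec4a3, a C-type lectin receptor, read log2 6.18, 6.61 and 5.97 in the control arrays and 5.11, 5.34 and 5.23 in the mutant arrays and fell by 1.03 ± 0.178 (adjusted p = 0.00365). Tlr1 was above the 40th percentile on 2 control and 0 mutant arrays, and Clec4a3 on 1 control and 0 mutant arrays, so both folds rest on dim values. Lyz2, the lysozyme of myeloid cells, read log2 9.86, 10.24 and 10.13 in the control arrays and 9.20, 9.14 and 9.23 in the mutant arrays and fell by 0.89 ± 0.189 (adjusted p = 0.0117), while Laptm5, a lysosomal membrane protein of blood cells, read log2 9.51, 9.87 and 9.51 in the control arrays and 10.17, 10.08 and 10.14 in the mutant arrays and rose by 0.50 ± 0.141 (adjusted p = 0.0438), with another probe set at -0.02. The general markers Csf1r, Aif1 and Ptprc differed by 0.38, 0.09 and -0.07 and were not called, and the summed level was 13.82 to 14.20 in control and 14.00 to 14.06 in mutant arrays. Clec4a3 kept its call whichever array was left out. Tlr1 lost it without control replicate 2 or 3 or mutant replicate 1 (adjusted p up to 0.0969), Lyz2 without control replicate 2 (0.0512) or 3 (0.0554), and Laptm5 without any array other than control replicate 2 (up to 0.17) and with the random block (0.0877).

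Neuronal markers varied between mutant arrays. None of 18 was called by limma, 2 had an unadjusted p under 0.05, and 0 were called with the random block. Nefm, the medium neurofilament of sensory axons, read log2 12.52, 12.30 and 12.73 in the control arrays and 9.48, 12.87 and 11.12 in the mutant arrays, with mutant replicate 1 lowest and mutant replicate 2 above the controls. Over the list the order was another: the median against the controls was 0.24, 0.34 and -1.12 in mutant replicates 1, 2 and 3 taken singly. The summed level was 14.71 to 15.01 in control arrays and 14.72, 15.28 and 13.85 in mutant replicates 1, 2 and 3. Of the 11 Schwann cell markers 0 were called, with 0 under an unadjusted p of 0.05. Skeletal muscle (0 of 30 called, 0 under an unadjusted p of 0.05), red blood cells (0 of 9, 1) and olfactory and nasal epithelium (0 of 8, 1) had no calls by limma either. Skeletal muscle summed to 16.54 to 16.70 in control and 15.88 to 16.96 in mutant arrays, with mutant replicate 1 lowest. Of 9 genes of pigment cells and eye, Crybb1, a lens crystallin, was called (0.44 ± 0.103, adjusted p = 0.0196), a call lost without control replicate 1 or 3 or mutant replicate 1 (up to 0.081). The list summed to 11.45 to 11.64 in control and 11.57 to 12.25 in mutant arrays, and Tyrp1, Mlana, Cryaa, Cryba1 and Rax were below the 40th percentile on all 6 arrays.

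**Figure D3:**
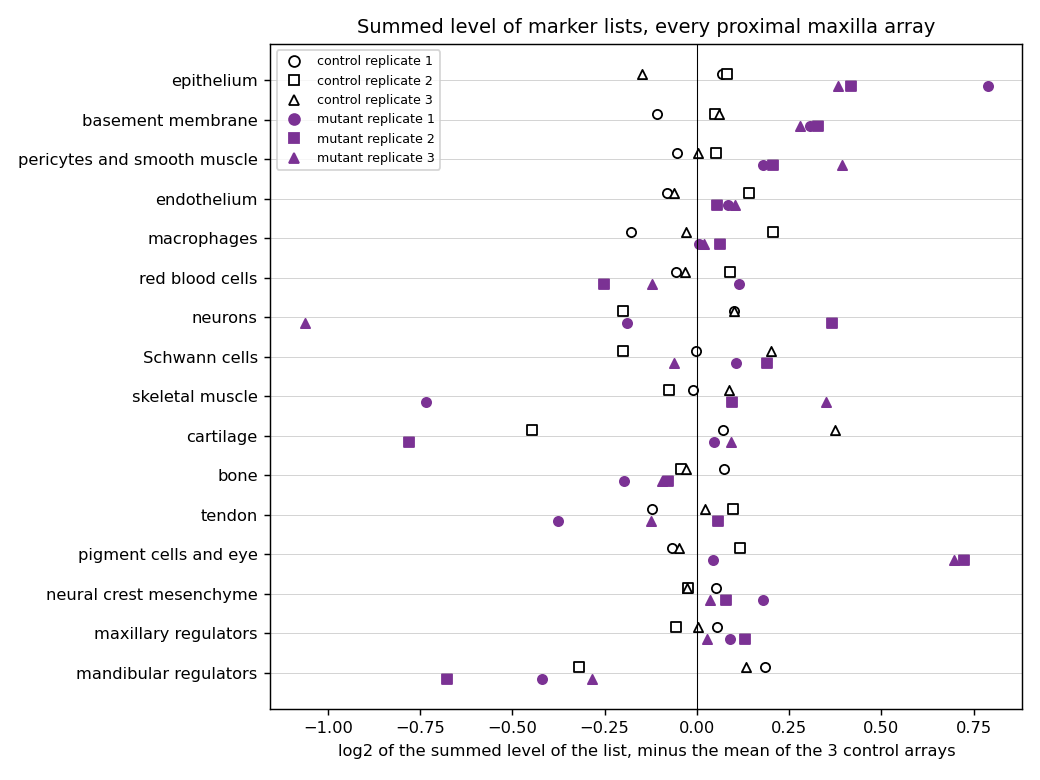
Log2 of the summed level of each marker list in each proximal maxilla array, minus the mean of the 3 control arrays, with controls as open and mutants as filled symbols and the replicate number as the shape. Epithelium, basement membrane and pericyte lists lie higher in every mutant than in every control array, and the bone list lies lower. Neurons and skeletal muscle spread more widely among the mutant than among the control arrays, while cartilage spreads widely in both groups.

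Of 14 bone genes 1 was called lower and 1 higher, with a median of -0.34. In 7 of the 14 all mutant arrays lay below all controls and in 3 above, against 24.9% of all genes tested without overlap in either direction. An unadjusted p under 0.05 was found in 9 of the 14, against 21.4% of all genes tested. Sp7, the osteoblast factor osterix, read log2 10.07, 9.87 and 10.01 in the control arrays and 9.01, 8.96 and 9.39 in the mutant arrays and fell by 0.86 ± 0.249 (adjusted p = 0.0485). Ifitm5, a membrane protein of osteoblasts, read log2 10.27, 9.78 and 9.91 in the control arrays and 9.16, 8.64 and 9.44 in the mutant arrays and differed by -0.90 ± 0.299 without being called (adjusted p = 0.0827). Both were lower in every mutant array than in every control array. Runx2 was not among the genes tested, Alpl differed by -0.37 and Ibsp by -0.71, neither called. The summed level of the bone list was 14.91 to 15.025 in control and 14.755 to 14.875 in mutant arrays. Sost, the osteocyte protein sclerostin, rose by 0.63 ± 0.127 (adjusted p = 0.00912), from values below the 40th percentile in all 3 controls and 2 of the 3 mutants. Sp7 lost its call without any array other than mutant replicate 3 (adjusted p up to 0.15) and with the random block (0.111), and Sost without control replicate 1 (0.051). None of 19 cartilage genes was called by limma, with 0 under an unadjusted p of 0.05 and 0 called with the random block. Col2a1 and Acan differed by -0.32 and 0.14, and the list median was 0.03, -0.82 and 0.1 in mutant replicates 1, 2 and 3 taken singly. The cartilage list summed to 15.341, 14.825 and 15.646 in the control arrays and 15.318, 14.491 and 15.364 in the mutant arrays. Replicate 2 was thus the lowest array of both groups.

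Among factors that pattern the face, Tfap2b, an AP-2 factor of the maxillary crest mesenchyme, read log2 9.36, 9.65 and 9.70 in the control arrays and 11.37, 10.36 and 10.17 in the mutant arrays and rose by 1.06 ± 0.265 (2.09-fold, adjusted p = 0.0262). Its relative Tfap2a read log2 8.29, 8.48 and 8.27 in the control arrays and 8.78, 9.05 and 9.06 in the mutant arrays and rose by 0.61 ± 0.134 (adjusted p = 0.0137). All mutant arrays exceeded all controls in both, with mutant replicate 1 highest for Tfap2b. Tshz2, a zinc finger factor, rose by 0.54 ± 0.156 (adjusted p = 0.0479). In all, 2 of 23 maxillary regulators and 2 of 19 genes of crest mesenchyme were called higher and 0 lower, against 3.32% of all genes called higher. Tfap2b counts in both lists. Alx1 had the largest rise of the maxillary list, 1.65, without being called (adjusted p = 0.0943), and its other probe set gave 1.52. Pax9, also not called, differed by -0.52 (adjusted p = 0.148). Of 13 mandibular regulators only Cited1 was called, and Dlx5, Dlx6 and Hand2 differed by -0.40, -0.54 and -0.72. Hand2 read log2 9.16, 6.99 and 7.54 in the control arrays and 6.76, 7.36 and 7.42 in the mutant arrays. Tfap2b lost its call without mutant replicate 1 or any control (adjusted p up to 0.116) and with the random block (0.0561), Tfap2a without control replicate 1 (0.0611) or 3 (0.0684), and Tshz2 without any of the 6 arrays (up to 0.182) and with the random block (0.0984).

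Of 24 palate genes 0 were called by limma and 0 with the random block, against 5.7% of all genes, and 5 had an unadjusted p under 0.05, against 21.4% of all genes. Sim2, a basic helix-loop-helix factor of the palate, read log2 10.30, 9.80 and 10.04 in the control arrays and 8.35, 8.68 and 8.92 in the mutant arrays and differed by -1.40 ± 0.436 (adjusted p = 0.0647). A dimmer probe set of Sim2 (mean log2 7.02) gave -1.76 and passed when p was adjusted over all probe sets that name 1 gene (0.000778), where the brightest had 0.103. Tbx22, a T-box factor mutated in X-linked cleft palate, read log2 8.25, 8.06 and 7.86 in the control arrays and 10.08, 9.27 and 8.10 in the mutant arrays and differed by 1.09 ± 0.42 (adjusted p = 0.136). Wnt5a, a non-canonical WNT ligand, differed by 0.42 ± 0.13 (adjusted p = 0.0613). Tgfb3, the ligand of palatal fusion, and the palate factor Osr2 differed by 0.06 and -0.29. Tooth genes (0 of 17 called by limma, 6 under an unadjusted p of 0.05) and Hox genes (0 of 6, 0) had no calls.

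Other signalling pathways held few calls, against 5.7% of all genes tested that were called. Of 23 BMP genes only Nog, the antagonist noggin, was called: it read log2 6.78, 6.66 and 6.94 in the control arrays and 6.25, 6.24 and 6.24 in the mutant arrays and fell by 0.55 ± 0.147 (adjusted p = 0.0361), with all mutants below the 40th percentile. Of 19 FGF genes only Spry4, a feedback inhibitor of FGF signalling, was called, higher by 0.38 ± 0.0948 (adjusted p = 0.0262). The receptor Fgfr1, outside the rule for naming genes, differed by 0.02 with its brightest probe set (adjusted p = 0.893). A dimmer probe set of Fgfr1 (mean log2 9.79) gave -0.57 and passed in limma when p was adjusted over all probe sets that name 1 gene (0.0296). Its remaining probe set gave 0.12. Of 14 retinoic acid genes, the receptors Rarb and Rara went opposite ways, with differences of 0.72 ± 0.209 (adjusted p = 0.0485, arrays overlapping) and -0.35 ± 0.0851 (adjusted p = 0.0243). No gene was called by limma among 30 of WNT signalling (7 under an unadjusted p of 0.05) and 18 of hedgehog signalling (2). The WNT inhibitor Dkk1 differed by -0.68 ± 0.22 (adjusted p = 0.0733), and the hedgehog targets Gli1 and Ptch1 by -0.22 and -0.06. Nog lost its call without any of the 6 arrays (adjusted p up to 0.152) and with the random block (0.0562). Spry4 lost it without control replicate 1 or 3 or mutant replicate 2 or 3 (up to 0.114), Rara without control replicate 1 or 3 or mutant replicate 1 (up to 0.122), and Rarb without any array other than mutant replicate 3 (up to 0.223) and with the random block (0.0973).

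Eph receptors and their ephrin ligands guide cell sorting and axons. Of 18 tested genes of both kinds, 3 were called higher, all of them receptors, and 0 lower. Epha5 read log2 7.37, 7.19 and 7.55 in the control arrays and 8.55, 8.82 and 8.34 in the mutant arrays and rose by 1.20 ± 0.163 (2.29-fold, adjusted p = 0.000728). Epha2 read log2 8.11, 8.08 and 8.08 in the control arrays and 8.6, 8.43 and 8.6 in the mutant arrays and rose by 0.45 ± 0.0938 (adjusted p = 0.0105). Neither overlapped between the groups, and both calls were kept whichever array was left out. Epha7 rose by 0.41 ± 0.117 (adjusted p = 0.0438), with another probe set at -0.25. That call was lost without any of the 6 arrays (up to 0.164) and with the random block (0.0661).

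Of 30 tested genes of cell division, 5 were called lower and 0 higher, 27 were below 0, and the median was -0.14. With the random block 3 were called lower, and with mutant replicate 2 as the only mutant array 0. Birc5, survivin, read log2 12.03, 12.05 and 11.99 in the control arrays and 11.71, 11.81 and 11.51 in the mutant arrays and fell by 0.35 ± 0.0759 (adjusted p = 0.013). Pcna, the DNA polymerase clamp, read log2 13.76, 13.70 and 13.73 in the control arrays and 13.58, 13.42 and 13.47 in the mutant arrays and fell by 0.24 ± 0.0539 (adjusted p = 0.0156). The mutant arrays lay below the controls in both, by small amounts. Ccnb2, a mitotic cyclin, Cdc6, a replication licensing factor, and Aurkb, a mitotic kinase, were also called lower, with differences of -0.31 ± 0.0775, -0.27 ± 0.071 and -0.24 ± 0.0683 (adjusted p = 0.0274, 0.0325 and 0.0478). Mki67 differed by -0.07 and was not called. The summed level was 17.25 to 17.29 in control and 17.14 to 17.20 in mutant arrays. Birc5 lost its call without control replicate 1 (0.0503) or mutant replicate 3 (0.0501), and Pcna without control replicate 1 (0.0703) or 3 (0.0622). Ccnb2 lost it without any array other than mutant replicate 2 (up to 0.0902), Aurkb without any other than control replicate 3 (up to 0.19) and Cdc6 without any of the 6 (up to 0.116), and with the random block Cdc6 (0.0603) and Aurkb (0.0822) did not pass.

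Targets of p53 included 4 rises and 0 falls among 17, with a median of 0.22. Besides Pmaip1, Trp53inp1, a stress-induced p53 regulator, read log2 11.41, 11.22 and 11.21 in the control arrays and 12.06, 11.68 and 11.64 in the mutant arrays and rose by 0.51 ± 0.108 (adjusted p = 0.0107). Ccng1, cyclin G1, read log2 11.13, 11.16 and 10.85 in the control arrays and 11.31, 11.52 and 11.45 in the mutant arrays and rose by 0.38 ± 0.0849 (adjusted p = 0.0156), with another probe set at -0.12. Both were higher in each mutant array than in each control array. Eda2r, the ectodysplasin A2 receptor, rose by 0.54 ± 0.154 (adjusted p = 0.0457) from values below the 40th percentile in all controls. The classical targets Cdkn1a and Mdm2 differed by 0.24 and -0.06 and were not called. Trp53inp1 lost its call without control replicate 3 (0.0582) or mutant replicate 1 (0.0573), Ccng1 without control replicate 3 (0.0955), and Eda2r without any array other than mutant replicate 1 (up to 0.153) and with the random block (0.101).

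Genes of hypoxia and glycolysis were at or above 0 in 25 of 25 cases, with 4 called higher, 0 lower and a median of 0.16. Adm, the vasoactive peptide adrenomedullin, read log2 6.90, 7.29 and 6.85 in the control arrays and 7.94, 7.77 and 8.25 in the mutant arrays and rose by 0.97 ± 0.175 (1.96-fold, adjusted p = 0.00436). Slc2a1, the glucose transporter GLUT1, read log2 11.39, 11.31 and 11.49 in the control arrays and 12.31, 11.67 and 11.83 in the mutant arrays and rose by 0.54 ± 0.119 (adjusted p = 0.0135). Pdk1, which restrains pyruvate dehydrogenase, read log2 10.85, 10.90 and 10.93 in the control arrays and 11.42, 11.59 and 11.38 in the mutant arrays and rose by 0.57 ± 0.148 (adjusted p = 0.0317). The mutant arrays exceeded the controls in all 3. Pfkfb3, a regulator of glycolytic flux, rose by 0.47 ± 0.12 (adjusted p = 0.0285), and Vegfa differed by 0.16 without a call. The median over the list was 0.28, 0.04 and 0.22 in mutant replicates 1, 2 and 3 taken singly, and with mutant replicate 2 as the only mutant array 1 gene was called. The Gapdh difference given above was likewise lowest in mutant replicate 2, and its part in this list was not tested beyond the covariate, with which 7 were called higher. Adm kept its call whichever array was left out. Slc2a1 lost it without control replicate 1 or 2 or mutant replicate 1 (up to 0.0553), Pdk1 without any array other than mutant replicate 3 (up to 0.105), and Pfkfb3 without any other than mutant replicate 2 (up to 0.108).

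The calls of the lists that follow stand against 5.7% of all genes tested. Of 20 genes of cholesterol synthesis only Fdps, farnesyl diphosphate synthase, was called, differing by -0.60 ± 0.162 (adjusted p = 0.0359). Of 15 genes of lipid storage only Cebpb, a factor of early fat cell differentiation, was called, higher by 0.57 ± 0.15 (adjusted p = 0.0325). Fabp4, the fatty acid carrier of fat cells and capillaries, read log2 6.55, 7.66 and 7.08 in the control arrays and 4.59, 5.94 and 6.53 in the mutant arrays, with no overlap, and differed by -1.41 ± 0.486 (adjusted p = 0.0946). Of 20 immediate early and heat shock genes only Ier2 was called, differing by -0.29 ± 0.072 (adjusted p = 0.0264). Fdps lost its call without mutant replicate 3 or any control (up to 0.137), Cebpb without control replicate 1 or 3 or mutant replicate 1 or 2 (up to 0.163) and with the random block (0.0663), and Ier2 without control replicate 1 or 3 or mutant replicate 1 or 3 (up to 0.125).

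**Figure D4:**
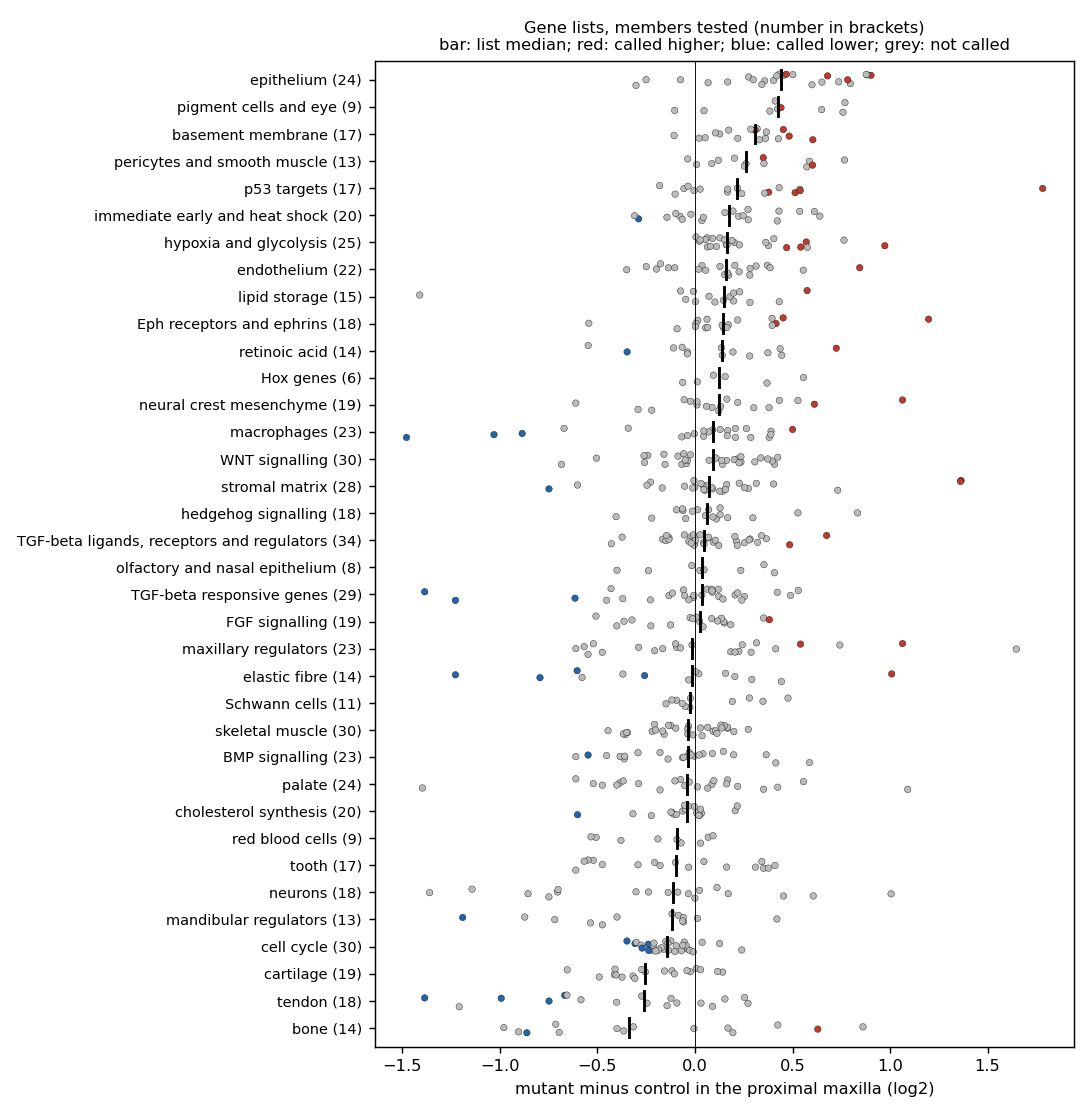
Mutant minus control difference in the proximal maxilla (log2, horizontal) of every tested member of the 36 gene lists drawn, ordered by the list median (bar), with members called higher in red, called lower in blue and not called in grey. The sex-linked and transgene check lists are not drawn, and among the others epithelium, pigment cells and basement membrane have the highest medians (0.44, 0.42 and 0.31) and bone, tendon and cartilage the lowest (-0.34, -0.26 and -0.25).

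The last question was where the genotype effect of the proximal maxilla differs from that of the other regions. Of the 789 called genes, 706 (89.5%) had the same sign in the other 3 regions, against 54.4% of all genes tested with the same sign in all 4. The distal maxilla shared 412 calls, all in the same direction, which is 52.2% of the proximal maxilla calls and 42% of its own 980 (7.08% of genes tested). The proximal mandible shared 335 in the same direction, 42.5% of the proximal maxilla calls and 45.1% of its own 742 (5.36%), and 1 in the opposite direction. The distal mandible shared 76, which is 9.63% of the proximal maxilla calls and 61.3% of its own 124 (0.895%). In all, 58 genes were called in the same direction in all 4 regions. The regions share no arrays, but arrays of the same genotype and replicate number tended to deviate together (random block correlation 0.401), so these counts may not be independent. The deviations of a proximal maxilla array correlated with those of its set in another region at -0.00136 to 0.681, lowest for control replicate 2 in both ends of the mandible.

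Tests of the difference itself called no gene. For the proximal maxilla against the mean of the other 3 regions limma called 0 genes, with 524 (3.78%) at an unadjusted p under 0.05. Against the distal maxilla it called 0, with 395 (2.85%), and against the proximal mandible 0, with 596 (4.3%). With the random block 1 gene (0.00722%) was called against the mean of the other regions and 6 (0.0433%) against the proximal mandible. The one gene was Ccnb3 (adjusted p = 0.0143 with the block, 0.116 without), which was above the 40th percentile only in the mutant proximal maxilla and whose difference was 2.00 in the proximal maxilla and 0.50, 0.19 and -0.03 in the distal maxilla, proximal mandible and distal mandible. The 6 were Ccnb3, Apoc1, Bcl11b, Mt1 and Nradd with the higher effect in the proximal maxilla and St3gal1 with the lower (adjusted p = 0.0484 each). By limma without the block, Bcl11b, Nradd and St3gal1 were not called in the proximal maxilla (0.29, 0.12 and -0.16, adjusted p = 0.119, 0.342 and 0.353). In the proximal mandible these genes were called (-0.41, -0.30 and 0.43, adjusted p = 0.0323, 0.0183 and 0.0132). Apoc1 was called in both, at 0.55 and -0.44. Of the 24 largest changes 17 kept their sign in the other 3 regions. Prokr2 differed by -1.61 here and by -0.36, -2.38 and 0.1 in those regions. In the distal maxilla its arrays read 7.66, 7.72 and 7.83 in controls and 8.48, 6.75 and 6.91 in mutants, so mutant replicate 1 lay above and the other 2 below the controls. Arg1 differed by 1.5 here and by -0.20, -0.30 and 0.27 there, and Pmaip1 by 1.78 here and by 0.91, 0.16 and 0.03. Cep83os, by contrast, was called in all 4 regions (1.24 here and 1.25, 1.11 and 1.23). Sp7, lower here, differed by -0.43, 0.69 and -0.42 in the other regions, and the difference of its effect from that in the proximal mandible was -1.55 ± 0.352 (adjusted p = 0.328).

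**Figure D5:**
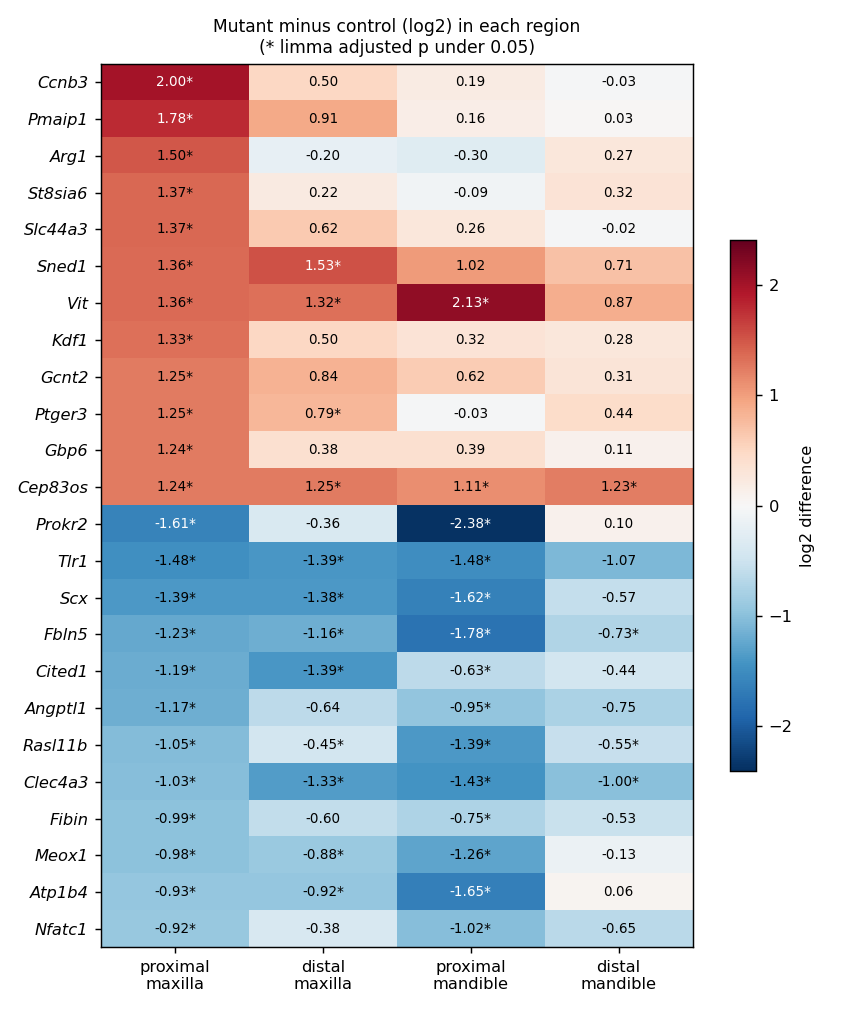
Mutant minus control difference (log2, printed and coloured) of the 12 largest rises and 12 largest falls of the proximal maxilla in each of the 4 regions, with a star where the limma adjusted p is under 0.05 in that region. Cep83os, Clec4a3, Fbln5 and Rasl11b carry a star in every region, while Ccnb3, Pmaip1 and Arg1 are among the genes with one in the proximal maxilla column alone.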

How the data were processed

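RNA of the 24 samples was read on Affymetrix arrays. The deposited log2 values were made by the authors with RMA, per the submitters' processing notes, with its version, the arrays normalized together and any pooling of embryos not given in the sources used here. Of 45101 probe sets, 34958 name 1 gene symbol, 932 several and 9211 none, and 34754 matched a RefSeq gene identifier. For each of 18194 genes the probe set of highest mean was used, and 13850 above the 40th percentile on at least 3 arrays were tested.

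The model was fitted in limma 3.58.1 (R 4.3.3) over 24 arrays with a coefficient for each of 8 groups (16 residual degrees of freedom). The random block joins arrays of the same genotype and replicate number (duplicateCorrelation, statmod 1.5.0). The members and the 38 gene lists (701 symbols, 654 found, 615 tested) were chosen with earlier results of these data known, so lists carry no test. The text names Tgfbr2, H2az2 and Wnt1, the 12 largest rises and falls among called genes whose arrays do not overlap, up to 4 members of each list by p and its defining markers, and other probe sets above the 40th percentile that move the opposite way. The rule would also name the 5 smallest p each way of called differences between regions. For arrays, their number limits the precision.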

Additional observations from a re-analysis of the deposited data

How the results depend on the processing

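Of the 789 genes called in the proximal maxilla, 58.3% were higher. The count was 451 (44.3% higher) with the mean of all probe sets of a gene and 2976 (45.5% higher) with the Gapdh 3' minus 5' difference as a covariate, so both turned the excess of rises. It was 137 with mutant replicate 2 as the only mutant array, 192 when the 12 maxilla arrays were fitted alone and 5 when the 6 proximal maxilla arrays were fitted alone, where limma has 4 residual degrees of freedom in place of 16. Leaving out 1 array gave 214 (without control replicate 3) to 773 (without mutant replicate 2). The other counts were 594 without a filter, 875 with a stricter filter, 822 after quantile normalization, 629 with the random block (52.8% higher), 752 with Xist and the Y-linked mean as covariates and 916 with the trend and robust options. Of the 789 genes, 154 stayed called in all 6 leave-outs, 568 with the random block, 409 with the Xist and Y-linked covariates and 105 with mutant replicate 2 alone.

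The replicate numbers are not stated to pair the samples. Deviations from the group means of same-numbered control and mutant proximal maxilla arrays correlated at 0.196, -0.0372 and 0.0986, and 2 of 3 controls correlated best with their own number. With the replicate number as a block within each region 509 genes were called (348 higher, 161 lower, 68.4% higher), 419 of them among the 789.

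For the difference from the mean effect of the other 3 regions, against 0 genes, 1 was called with the random block, 1 with Xist and the Y-linked mean as covariates and 2 with mutant replicate 2 alone, and leave-outs gave 0 to 20. For the difference from the distal maxilla it was 2 with mutant replicate 2 alone and 0 to 7 in leave-outs. For that from the proximal mandible it was 6 with the random block, 1 with mutant replicate 2 alone and 0 to 14 in leave-outs. The highest count came without mutant replicate 2 in each case.

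Of all 789 called genes, 758 kept their sign with the mean of all probe sets of a gene, so not every direction held. Of 1355 values of 76 followed genes under these alternatives, 0 changed sign, 873 kept their side of the threshold and 482 lost their call. Calls of the followed genes were lost most often with the 6 arrays alone (74) and with mutant replicate 2 alone. The cause was not tested, and those fits also hold fewer arrays. With 3 arrays a group, small changes could not be told from the spread, and genes below the 40th percentile of their array have only dim values behind their folds.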

Other observations

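The following genes were picked after their values were seen. The difference of effects passed for none of them by limma without the random block. Metallothioneins, which bind zinc and copper, were higher in the mutant proximal maxilla. Mt1 read log2 9.84, 10.03 and 9.89 in the control arrays and 10.76, 10.50 and 11 in the mutant arrays and rose by 0.83 ± 0.167 (adjusted p = 0.00894), and its differences in the distal maxilla, proximal mandible and distal mandible were 0.08, -0.24 and 0.13. Mt2 read log2 9.60, 9.92 and 9.61 in the control arrays and 10.83, 10.34 and 10.80 in the mutant arrays and rose by 0.94 ± 0.181 (adjusted p = 0.00708), with 0.06, -0.26 and -0.04 in those regions. The control proximal maxilla held the lowest control mean of both genes among the 4 regions (log2 9.92 and 9.71). With the mean of all probe sets of a gene Mt1 did not pass (0.42, adjusted p = 0.0637).

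A lysosomal protease of macrophages and an apolipoprotein also rose here. Ctss, the protease cathepsin S, read log2 10.78, 10.89 and 10.85 in the control arrays and 11.51, 11.48 and 11.27 in the mutant arrays and rose by 0.58 ± 0.0969 (adjusted p = 0.00295), against -0.04, 0.08 and -0.03 elsewhere. Apoc1, an apolipoprotein, read log2 8.09, 8.32 and 8.15 in the control arrays and 8.88, 8.65 and 8.67 in the mutant arrays and rose by 0.55 ± 0.125 (adjusted p = 0.0166), against -0.12, -0.44 and -0.27 elsewhere. The difference from the mean effect of the other regions was 0.58 ± 0.112 for Ctss and 0.83 ± 0.144 for Apoc1 (adjusted p = 0.258 and 0.116). The call of Ctss in the proximal maxilla was kept whichever array was left out, and 3 of the 6 leave-outs kept that of Apoc1, with the highest adjusted p, 0.0756, without mutant replicate 1.

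Igfbp7, a secreted binder of insulin-like growth factors, read log2 8.76, 9.24 and 8.91 in the control arrays and 10.35, 9.86 and 9.69 in the mutant arrays and rose by 1.00 ± 0.151 (adjusted p = 0.00159), with another probe set at -0.24. Its differences elsewhere were 0.43, 0.01 and 0.05. Slitrk1, a transmembrane protein of neurons, read log2 8.96, 9.10 and 9 in the control arrays and 10.00, 10.54 and 10.23 in the mutant arrays and rose by 1.24 ± 0.235 (adjusted p = 0.00647), and its differences elsewhere, 0.58, 0.66 and 0.20, had the same sign. Both stayed called when any single array was left out. Sncg, gamma-synuclein of sensory neurons, read log2 10.49, 10.12 and 10.74 in the control arrays and 7.77, 10.93 and 8.81 in the mutant arrays and was not called (-1.28 ± 0.469, adjusted p = 0.115), while its differences in the other 3 regions were 1.27, 1.57 and 1.43. Its low arrays here, mutant replicates 1 and 3, are also those of low Nefm.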
